A study of Mus musculus with 6 samples.

Results

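The following 10 genes of the hypoxia-inducible factor (HIF) pathway were examined in sorted retinal vascular endothelial cells (VECs) of Bmal1;CKO and control mice. They were chosen by symbol: the alpha subunits Hif1a and Epas1, their partner Arnt, the prolyl hydroxylases Egln1 and Egln3, the ubiquitin ligase subunit Vhl, and the hypoxia targets Bnip3, Ddit4, Ankrd37 and P4ha1. Each symbol matched 1 row of the deposited table, so the set holds 10 of 55487 listed genes, and all 10 passed the read filter (3 or more libraries holding 10 or more reads each) that left 20459 genes to test.

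The series compares the transcriptome of VECs with and without the clock gene Bmal1 at postnatal day (P) 7.5, while the vessels of the mouse retina are still growing. Control animals were tdTomato FL/+;Pdgf-icreER and Bmal1;CKO animals were Bmal1 FL/FL;tdTomato FL/+;Pdgf-icreER, with 3 libraries per genotype. Both groups therefore carried the Pdgf-icreER transgene and the tdTomato reporter, and tamoxifen was given to both on the days P0.5 to P2.5. Cre recombinase and GFP come from the same transgene, tdTomato marks recombined cells, and cells positive for GFP and tdTomato were sorted, so the controls differ in lacking the floxed Bmal1 alleles.

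HIF is a dimer of an oxygen-regulated alpha subunit and the constitutive beta subunit ARNT. In the presence of oxygen, prolyl hydroxylases modify the alpha subunit, the VHL complex recognises the modified protein and it is degraded. In hypoxia the protein accumulates and the dimer binds short DNA elements with the core ACGTG or GCGTG. In the growing retina this pathway drives expression of angiogenic factors ahead of the vascular front. BMAL1, encoded by Arntl, belongs to the same bHLH-PAS protein family as ARNT and, with CLOCK, binds the E-box CACGTG. Because alpha subunits are controlled largely as proteins, RNA levels do not report HIF activity.

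The sequences upstream of the members are shown because the motif searched, the HIF core, and the E-box can overlap. RefSeq (GRCm38.p6) gave the 250 bases before the transcription start of 9 members, and Epas1 had no entry. Shown are the 4 members whose libraries did not overlap between genotypes, followed by Bnip3, the other member that holds an E-box. Each is written 5′ to 3′ on the gene's strand, and capitals mark ACGTG and GCGTG on either strand, so that CACGT and CACGC are matches on the other strand and CACGTG is a match on both. The Hif1a sequence lies on the plus strand at chr12:73907617-73907866, the Arnt sequence on the plus strand at chr3:95434140-95434389, the Ddit4 sequence on the minus strand at chr10:59951771-59952020, the P4ha1 sequence on the plus strand at chr10:59323046-59323295 and the Bnip3 sequence on the minus strand at chr7:138909507-138909756.
Hif1a: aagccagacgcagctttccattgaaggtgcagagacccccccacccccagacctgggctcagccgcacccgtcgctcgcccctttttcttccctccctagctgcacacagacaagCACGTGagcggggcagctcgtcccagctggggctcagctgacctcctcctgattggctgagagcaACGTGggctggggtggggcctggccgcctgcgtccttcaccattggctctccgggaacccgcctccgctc
Arnt: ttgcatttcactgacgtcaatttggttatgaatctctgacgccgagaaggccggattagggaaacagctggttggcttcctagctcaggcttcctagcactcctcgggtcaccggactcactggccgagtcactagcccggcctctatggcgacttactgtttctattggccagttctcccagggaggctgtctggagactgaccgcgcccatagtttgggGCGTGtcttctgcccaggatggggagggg
Ddit4: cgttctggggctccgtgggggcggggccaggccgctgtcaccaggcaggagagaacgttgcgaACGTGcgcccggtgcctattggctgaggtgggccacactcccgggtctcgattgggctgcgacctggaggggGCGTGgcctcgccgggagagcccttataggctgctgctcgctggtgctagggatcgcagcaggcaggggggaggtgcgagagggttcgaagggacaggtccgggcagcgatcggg
P4ha1: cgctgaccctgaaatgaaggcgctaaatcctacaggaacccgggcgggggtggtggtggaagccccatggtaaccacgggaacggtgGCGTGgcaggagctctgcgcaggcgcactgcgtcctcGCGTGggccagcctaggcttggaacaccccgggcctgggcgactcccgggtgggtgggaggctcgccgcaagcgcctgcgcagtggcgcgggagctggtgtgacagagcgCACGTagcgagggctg
Bnip3: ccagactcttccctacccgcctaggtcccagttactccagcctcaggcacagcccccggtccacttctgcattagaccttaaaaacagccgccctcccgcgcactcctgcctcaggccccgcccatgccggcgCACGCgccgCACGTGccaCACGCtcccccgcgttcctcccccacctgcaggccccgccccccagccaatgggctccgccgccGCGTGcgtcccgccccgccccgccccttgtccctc

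The HIF core was found in 8 of the 9 windows, the exception being Vhl, against 38.6% of the 32851 windows in the RefSeq table. ACGTG was in 7 of 9 windows, against 16.6% of all windows, and GCGTG was in 6 of 9, against 28.2%. The E-box CACGTG, which contains ACGTG on both strands, was in the windows of Hif1a and Bnip3, against 6.02% of all windows. In Hif1a it lay 135 to 130 bases before the start, with a further ACGTG at 70 to 66 bases. In Bnip3 it lay 108 to 103 bases before the start. Arnt held a single GCGTG, 29 to 25 bases before its start. The windows of the members were 50.8% to 86% G or C, and the motifs contain CG, so base composition bears on these shares, and it was not matched. The set was also chosen to hold hypoxia targets, so the shares are not independent of that choice. The RefSeq start of Hif1a used here lies inside the Ensembl gene, which begins at position 73901375 of chromosome 12, and that of Ankrd37, whose window is at chr8:45999851-46000100, lies inside a minus-strand Ensembl gene that begins at position 46005707 of chromosome 8. A match describes letters in a window and is not a site of binding.

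Reads on genes ranged from 71145068 to 104017800 per library. The deposited values are normalized counts, meaning reads divided by a size factor of each library (0.711 to 1.40), and dividing each column by its smallest step gave whole reads for 100% of values. The lowest count of any member was 289 reads, for Arnt in Bmal1;CKO library 4, for which counting error alone is 5.88%. Libraries carry the column numbers of the table, where control holds 1 to 3 and Bmal1;CKO holds 4 to 6. Differences were tested with limma-trend on log2(normalized count + 1), with Benjamini-Hochberg adjustment over all tested genes. An exact two-sided permutation test was added for single genes, for which 3 libraries against 3 cannot give a p below 0.1.

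The libraries held more than endothelial RNA, so a member's count was not that of endothelial cells alone. Per library, the microglial marker median divided by the endothelial one was 8.36, 9.25 and 11.9 in control and 13.6, 24.1 and 12.5 in Bmal1;CKO. The rod median divided likewise was 4.09, 8.48 and 3.22 in control and 1.76, 8.14 and 2.55 in Bmal1;CKO, without correction for length. All 14 endothelial markers had at least 10 reads in every library, and their median normalized count per library was 5984 to 12022 in control and 4004 to 9473 in Bmal1;CKO, with summed levels of 194105 to 385481 and 119787 to 250530.3. All 14 had a lower mean in Bmal1;CKO. The 9 microglial markers were all detected, with medians of 55378 to 102929 and 96558 to 118104 and sums of 1386183 to 4103347 and 2013410 to 3985845, and 8 of 9 had a higher mean in Bmal1;CKO. The 12 rod markers were also all detected, 11 of them lower by mean in Bmal1;CKO, with sums of 740146.5 to 909769.8 and 550952 to 892527, although their median log2 fold change of -0.26 turned to 0.07 without Bmal1;CKO library 4. All 11 immediate early genes, which cell isolation is known to induce, had a higher mean in Bmal1;CKO, and their sums were 388006 to 1132037 and 913474 to 1377580.0. Of the 8 markers of Müller glia, 7 had a higher mean in Bmal1;CKO. The 7 pericyte markers were uneven among the controls, with sums of 2637, 7170 and 46180 in libraries 1 to 3. In libraries 4 to 6 the sums were 7643, 4185 and 6927. By group mean all 7 were lower in the mutant libraries, whereas 4 of 7 were higher in the limma-trend fit. The median of their fitted values was 0.59 by limma-trend and -1.60 by edgeR. The limma-trend median was 2.91 without control library 3 and -1.61 without control library 1. Their direction therefore turned with the library and with the measure. Aqp4, Pax2, Abcc9, Opn1mw, Gad1, Pou4f2 and Thy1 were among the markers with no read in at least 1 library. In a bulk library, fewer cells of a type and less RNA per cell cannot be told apart, and the part of these differences in the results for the HIF genes was not tested.

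Arntl, the deleted gene, had 1700 (library 1), 3489 (library 2) and 2928 (library 3) normalized counts in control and 1779, 2747 and 2415 in libraries 4 to 6 of Bmal1;CKO. The groups overlapped, with a log2 fold change of -0.19 ± 0.36 (SE) and an adjusted p of 0.924 by limma-trend. The count takes in all exons, and the deleted segment was not counted on its own, so it does not check the deletion. In sorted endothelial cells, the study reported significantly less Bmal1 transcript in the mutant by ddPCR.

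The fitted mean in Bmal1;CKO was lower for 8 of the 10 members, against 43.4% of all tested genes, and higher for 2. When the libraries were scaled to the endothelial markers, 8 members were higher, as were 17066 of the 20459 tested genes. The median log2 fold change of the members was -0.37 in the deposited scale and 0.16 in the endothelial scale. Across all tested genes, the medians were 0.11 in the deposited scale and 0.63 in the endothelial scale, so the members' median was below that of all genes in each. After edgeR, voom or DESeq2 all 10 were lower, with an edgeR median of -0.43 against -0.03 for all genes. The all-gene median was 0.11 by voom and -0.03 by DESeq2. The share of all tested genes that were lower in these 3 fits was not counted, and the 43.4% is that of limma-trend. No member, and none of all tested genes (0%), passed a false discovery rate (FDR) of 0.05 in limma-trend or edgeR. DESeq2 called 67 genes (0.327%), none of them a member. At an unadjusted p under 0.05, limma-trend called 1 member, Hif1a, and 4.92% of all tested genes, or 1.75% lower and 3.17% higher. In the fit of the 15046 genes it called 382 lower and 347 higher, so the excess of higher calls was absent there. At the same level edgeR and DESeq2 also called Hif1a alone among the members, with 3.8% and 5.94% of all tested genes. Under 17 alternatives to the test, scale, filter or set of libraries, the smallest adjusted p of any member was 0.423 and the largest 0.9999. In 4 members, Hif1a, Arnt, Ddit4 and P4ha1, every Bmal1;CKO library was below every control library, compared with 4.54% of tested genes in that direction and 6.62% in the other.

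**Figure D1:**
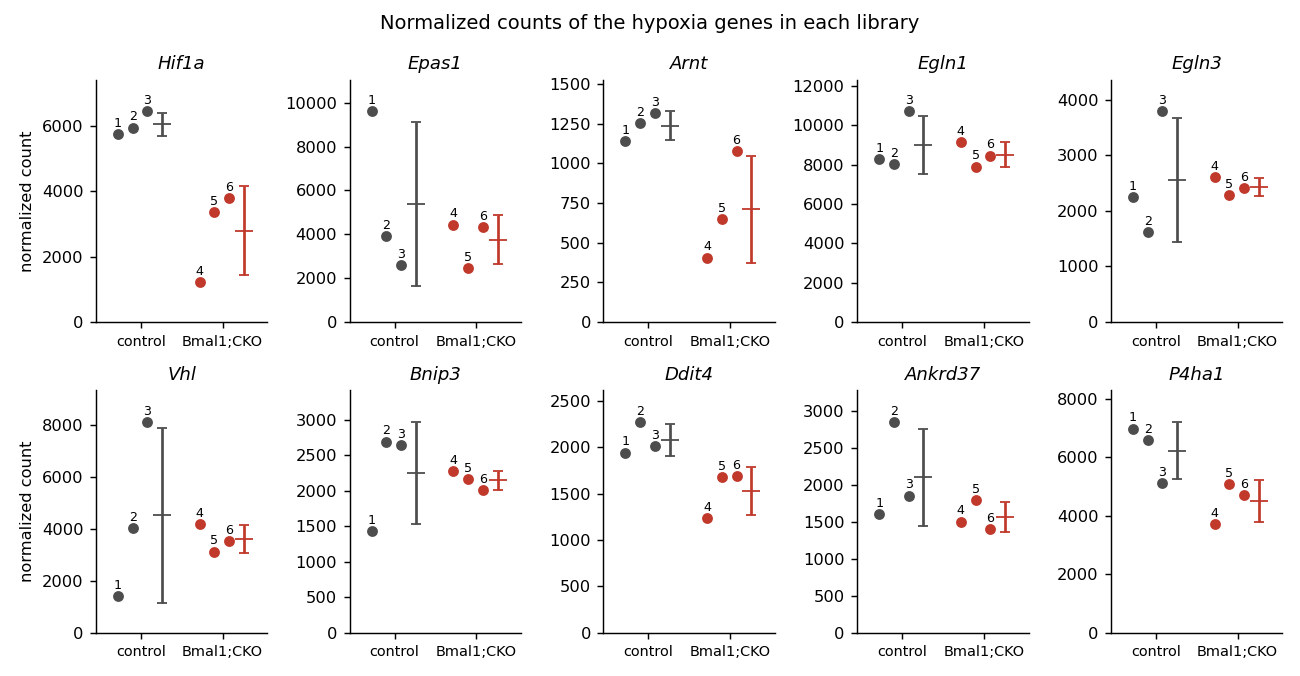
Normalized counts (y axes, starting at 0) of the 10 members in each library, with 1 numbered point per library (control 1 to 3, then Bmal1;CKO 4 to 6) and bars for the mean ± SD (n = 3). Hif1a ranged from 5756 to 6448 in control and from 1233 to 3789 in Bmal1;CKO, whereas the control points of Vhl spanned 1409 to 8102 and enclosed those of Bmal1;CKO.

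Hif1a, which encodes the alpha subunit HIF-1α, is ENSMUSG00000021109 and lies at 73901375 to 73947530 on the plus strand of chromosome 12 (GRCm38). Its normalized counts were 5756, 5951 and 6448 in control and 1233, 3367 and 3789 in Bmal1;CKO, or 6052 ± 357 and 2796 ± 1370 (SD, n = 3). The control libraries were close together, and Bmal1;CKO library 4 was far below its group. The ratio of the means was 0.462, and the log2 fold change was -1.27 ± 0.43 (SE), with a 95% interval of -2.28 to -0.26. The adjusted p by limma-trend was 0.883, the unadjusted p was 0.0200 and the exact permutation p was 0.1, the smallest it can give. Without Bmal1;CKO library 4 the log2 fold change was -0.76, with an unadjusted p of 0.0262 by limma-trend, and without Bmal1;CKO library 6 it was -1.57. The value was negative in all 17 alternatives and under an unadjusted p of 0.05 in 15 of them. The exceptions were the fit without control library 3, where the p by limma-trend was 0.0535, and the endothelial scale, where the value was -0.74 and the p 0.272. Hif1a shares 330 exonic bases with an antisense gene, Gm15283, and it had 29489 reads in all against 1404 for that gene. Whether strand was used in counting is not given in the sources used here, so reads of the shared bases cannot be told apart.

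Divided by the endothelial marker median of the same library, Hif1a was 0.479, 0.995 and 0.748 in control and 0.163, 0.841 and 0.400 in Bmal1;CKO. These ratios overlapped (exact permutation p = 0.3). Divided by the microglial marker median it was 0.0573, 0.107 and 0.0626 in control and 0.0119, 0.0349 and 0.0321 in Bmal1;CKO, which did not overlap (exact permutation p = 0.1).

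**Figure D2:**
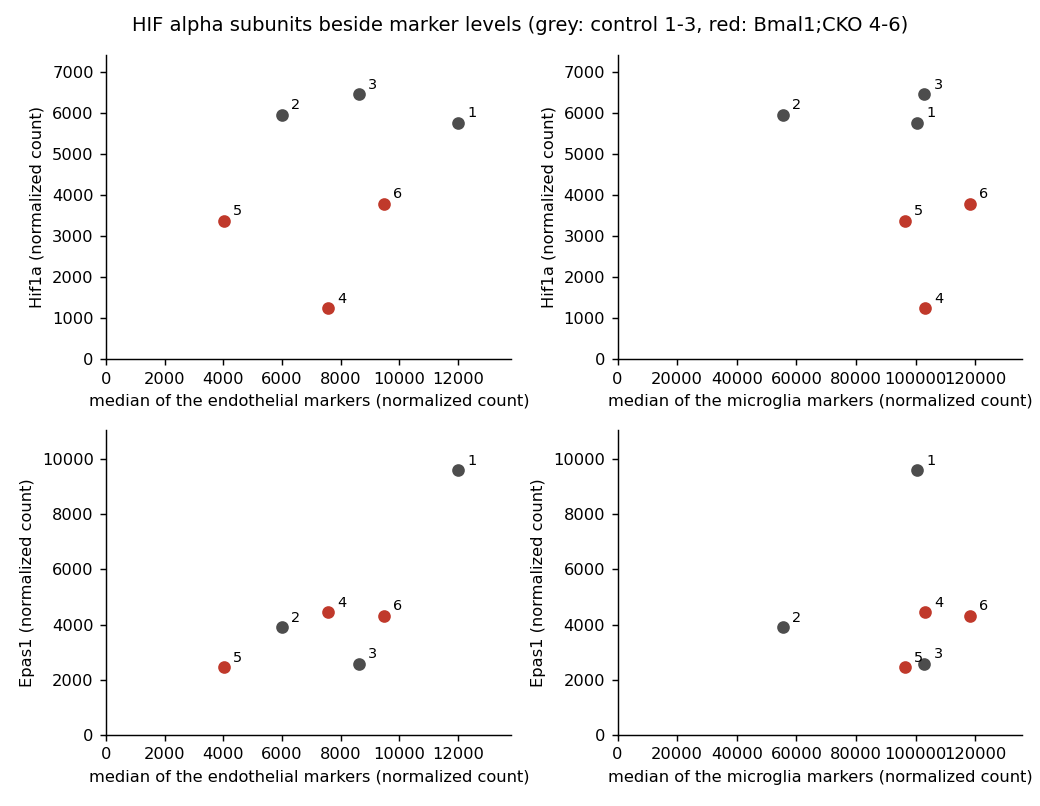
Normalized counts of Hif1a and Epas1 (y axes) against the median normalized count of the endothelial or microglial markers (x axes) in each of the 6 libraries, all axes starting at 0. Control library 1, with an endothelial median of 12022, has the highest Epas1 at 9606, and Bmal1;CKO library 4 has the lowest Hif1a at 1233 with an endothelial median of 7572.

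Epas1 (ENSMUSG00000024140, chromosome 17, 86753700 to 86833410, plus strand) encodes HIF-2α, the alpha subunit known for its abundance in endothelium. It was listed at 9606, 3913 and 2586 in control and at 4447, 2456 and 4327 in Bmal1;CKO, giving means of 5368 ± 3729 and 3743 ± 1117 (SD, n = 3). The groups overlapped, and control library 1 was far above the rest. The log2 fold change was -0.35 ± 0.50 (SE), with a 95% interval of -1.51 to 0.82 and an adjusted p of 0.905 by limma-trend. Without control library 1 the sign turned, to 0.18. Against the endothelial marker median, Epas1 was 0.799, 0.654 and 0.3002 in control and 0.587, 0.613 and 0.457 in Bmal1;CKO, with an exact permutation p of 1. Per kilobase of exon, Epas1 divided by Hif1a was 1.76, 0.694 and 0.423 in control and 3.80, 0.769 and 1.20 in Bmal1;CKO. Library 4 was highest and the groups overlapped (exact permutation p = 0.4).

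Arnt (ENSMUSG00000015522, chromosome 3, 95434388 to 95497240, plus strand) encodes the beta subunit that both alpha subunits need to bind DNA. It had 1141, 1256 and 1318 normalized counts in control and 406, 648 and 1076 in Bmal1;CKO, or 1238 ± 90.1 and 710.04 ± 339 (SD, n = 3). Every Bmal1;CKO library was below every control library, library 6 by the least. The log2 fold change was -0.91 ± 0.44 (SE), with a 95% interval of -1.93 to 0.11. The adjusted p by limma-trend was 0.883 and the unadjusted p 0.0734. Without Bmal1;CKO library 4 the value was -0.57, and without library 6 it was -1.27, with an unadjusted p of 0.0311 by limma-trend. Per kilobase, Hif1a divided by Arnt was 6.85, 6.44 and 6.64 in control and 4.12, 7.06 and 4.78 in Bmal1;CKO, and the groups overlapped (exact permutation p = 0.4).

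The hydroxylases and Vhl, which together remove the alpha subunits in oxygen, overlapped between the groups and had fitted differences near 0. Egln1 (ENSMUSG00000031987, chromosome 8, 124908587 to 124949324, minus strand) encodes PHD2, the main oxygen-sensing hydroxylase. It had 8271, 8012 and 10710.4 normalized counts in control and 9164, 7906 and 8464 in Bmal1;CKO, which overlapped. It differed by a log2 fold change of -0.07 ± 0.23 (SE; 95% interval -0.61 to 0.47; adjusted p by limma-trend 0.956). Egln3 (ENSMUSG00000035105, chromosome 12, 54178981 to 54203860, minus strand) encodes PHD3, itself a hypoxia-induced hydroxylase. Its values were 2252, 1614 and 3790 in control and 2606, 2277 and 2404 in Bmal1;CKO. All Bmal1;CKO libraries lay within the control range, with a log2 fold change of 0.02 ± 0.36 (SE; 95% interval -0.81 to 0.85; adjusted p by limma-trend 0.994). Per kilobase, Egln1 divided by Egln3 was 2.72, 3.68 and 2.09 in control and 2.60, 2.57 and 2.61 in Bmal1;CKO.

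Vhl (ENSMUSG00000033933, chromosome 6, 113623959 to 113631633, plus strand) encodes the subunit that recognises hydroxylated HIF-α. It had 1409, 4026 and 8102 normalized counts in control and 4191, 3125 and 3520 in Bmal1;CKO. The control libraries differed by 5.75-fold from lowest to highest and those of Bmal1;CKO by 1.34-fold. The log2 fold change was 0.0014 ± 0.58 (SE; 95% interval -1.35 to 1.36; adjusted p by limma-trend 0.999), and it was -0.67 without control library 1 and 0.59 without control library 3. These intervals do not show that Egln1, Egln3 and Vhl were equal in the groups, and that of Vhl takes in more than a doubling in either direction.

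Bnip3 (ENSMUSG00000078566, chromosome 7, 138890836 to 138909519, minus strand) encodes a mitophagy receptor of the BCL2 family. It had 1431, 2696 and 2642 normalized counts in control and 2280, 2169 and 2013 in Bmal1;CKO. The groups overlapped, control library 1 being lowest. Bnip3 differed by a log2 fold change of -0.01 ± 0.33 (SE; 95% interval -0.78 to 0.76; adjusted p by limma-trend 0.996). Its window is the other one that holds the E-box.

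Ddit4 (ENSMUSG00000020108, chromosome 10, 59949669 to 59951834, minus strand) encodes REDD1, an inhibitor of mTORC1 that is induced by stress as well as hypoxia. It had 1944, 2273 and 2011 normalized counts in control and 1233, 1676 and 1685 in Bmal1;CKO, or 2076 ± 174 and 1532 ± 258 (SD, n = 3). The groups did not overlap. This gave a log2 fold change of -0.45 ± 0.29 (SE; 95% interval -1.11 to 0.21; adjusted p by limma-trend 0.883; unadjusted p 0.156), with a range of -0.53 to -0.30 when each library was left out and 0.08 in the endothelial scale.

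P4ha1 (ENSMUSG00000019916, chromosome 10, 59323296 to 59373304, plus strand) encodes the catalytic subunit of collagen prolyl 4-hydroxylase. It had 6976, 6573 and 5119 normalized counts in control and 3712, 5076 and 4708 in Bmal1;CKO, or 6223 ± 977 and 4499 ± 706 (SD, n = 3). The groups were apart only by the distance of control library 3 from Bmal1;CKO library 5, which was small beside the SDs. P4ha1 had a log2 fold change of -0.47 ± 0.25 (SE; 95% interval -1.06 to 0.12; adjusted p by limma-trend 0.883; unadjusted p 0.104), with a range of -0.60 to -0.34 when each library was left out and 0.06 in the endothelial scale.

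Ankrd37 (ENSMUSG00000050914, chromosome 8, 45996902 to 46005707, minus strand) encodes an ankyrin repeat protein known as a direct HIF-1 target. It had 1602, 2854 and 1856 normalized counts in control and 1505, 1797 and 1405 in Bmal1;CKO. The groups overlapped, and control library 2 was the highest. The log2 fold change was -0.39 ± 0.33 (SE; 95% interval -1.14 to 0.37; adjusted p by limma-trend 0.883), and it was 0.14 in the endothelial scale. It shares 57 exonic bases with Ufsp2 and 349 with Lrp2bp, both on the opposite strand, and Ufsp2 had 31630 reads in all against 11831 for Ankrd37, so its count is uncertain.

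**Figure D3:**
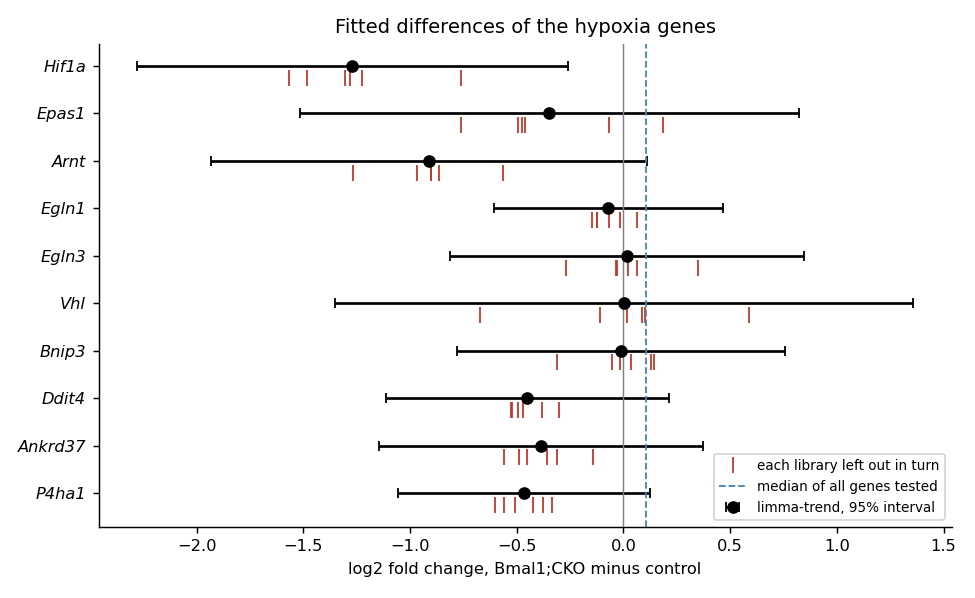
Fitted log2 fold changes of the 10 members, Bmal1;CKO minus control (x axis), with 95% intervals as bars, the values with each library left out as ticks and the median of all tested genes (0.11) as a dashed line. Among the members, only Hif1a has an interval, -2.28 to -0.26, that lies wholly below 0. In the endothelial scale, which is not drawn, 8 of the 10 values are above 0, as are those of 17066 of the 20459 tested genes.

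By library, the lowest level of 4 members (Hif1a, Arnt, Ddit4 and P4ha1) was in Bmal1;CKO library 4, and that of 2 (Vhl and Bnip3) was in control library 1. The highest level of 5 members (Hif1a, Arnt, Egln1, Egln3 and Vhl) was in control library 3, and no member was highest in a Bmal1;CKO library. The share of all tested genes with their highest level in a control library was not counted. The median SD of the members' log2 values was 0.33 in control and 0.22 in Bmal1;CKO. Across the 9241 tested genes with a mean of at least 1000 normalized counts it was 0.51 and 0.30, so the wider spread of the control libraries was not particular to the members. The members differed in this respect. Hif1a and Arnt had an SD of 5.89% and 7.28% of the mean in control and 49.0% and 47.7% in Bmal1;CKO, whereas Egln3 and Vhl had 43.8% and 74.7% in control and 6.84% and 14.9% in Bmal1;CKO.

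Levels of different genes can be compared only per length of exon. Over the 6 libraries, Egln1 was the highest member at 2436 ± 294 normalized counts per kb (SD, n = 6), above the next in 6 of 6 libraries. It was followed by Vhl at 1355 ± 739, P4ha1 at 1303 ± 295, Ankrd37 at 1193 ± 342 and Ddit4 at 1028 ± 204. Bnip3 (974 ± 205), Egln3 (935 ± 270), Epas1 (815 ± 468) and Hif1a (750.3 ± 338) came next. Each gene from Vhl to Epas1 was above its next neighbour in only 3 or 4 of 6 libraries, so their order was not resolved. Arnt was lowest at 122 ± 45.5, below Hif1a in 6 of 6 libraries.

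**Figure D4:**
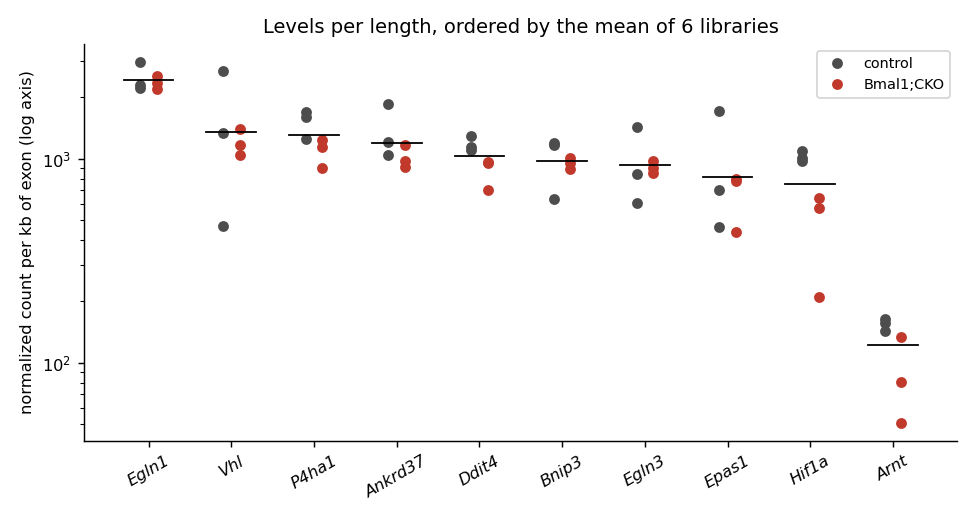
Normalized count per kb of exon (y axis, log scale) of the 10 members, ordered from left to right by the mean of the 6 libraries, with 1 point per library. Egln1, at 2436, and Arnt, at 122, stand at the ends of the order, and the points of the genes between them overlap.

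The genes whose levels followed Hif1a most closely over the 6 libraries, by the root mean square difference of centred log2 values among 9241 genes, were Map2 (0.169), Erlin1 (0.197) and Svip (0.208). Map2, a microtubule-associated protein of neurons, had 2934, 2901 and 2860 normalized counts in control and 799, 1860 and 2051 in Bmal1;CKO. The closest to Epas1 were Grrp1 (0.0962), Ccm2l (0.144) and Stap2 (0.150). Grrp1 had 14759, 5864 and 3776 in control and 6693, 3859 and 5536 in Bmal1;CKO, highest in control library 1 as Epas1 was. Likeness was measured on 6 libraries and was not tested.

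A wider set of 80 HIF pathway and target genes gave the context, of which 78 were tested. The fitted log2 value in Bmal1;CKO was higher for 36 and lower for 42, and the counts of higher and lower genes in the lists below are also of fitted values. Of the 78, 65 were higher in the endothelial scale, as were 17066 of the 20459 tested genes. The median log2 fold change was -0.05 (-0.13 by edgeR) in the deposited scale, 0.48 in the endothelial scale and -0.35 when scaled likewise to the microglial markers, and these medians move with that of all genes (0.11, 0.63 and -0.20). None passed an FDR of 0.05 by limma-trend, with a smallest adjusted p of 0.883. At an unadjusted p under 0.05 there were 6, 1 higher and 5 lower, against the 4.92% of all tested genes given above, and by edgeR there were 3. The groups did not overlap for 3 of the 78 that were higher and 6 that were lower, against 6.62% and 4.54% of all tested genes. Both counts of higher genes include Hif3a, which passed the read filter only through the Bmal1;CKO libraries.

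Among 14 regulators of the pathway, 9 were higher and 5 lower, with a median of 0.31 that became -0.04 without control library 1 and 0.01 in the microglial scale. Eloc, which encodes elongin C of the VHL ligase, had 6264, 7813 and 4766 normalized counts in control and 2767, 3166 and 2974 in Bmal1;CKO. These groups were well apart, with a log2 fold change of -1.05 ± 0.27 (SE), an adjusted p of 0.883 by limma-trend and an unadjusted p of 0.0046. The adjusted p of Eloc was 0.102 by DESeq2 and 0.9998 by edgeR. Egln2, the remaining prolyl hydroxylase, had 18799, 13764 and 20643 in control and 30610.1, 24720 and 17392 in Bmal1;CKO, with overlap and a log2 fold change of 0.43 ± 0.30 (SE). Hif1an, the asparaginyl hydroxylase FIH, had 671, 2412 and 2214 against 1714, 2195 and 2154, and these overlapped. Cited2, an inhibitor that competes with HIF-α for p300, had 21453, 14793 and 12152 against 24783, 25847 and 19092, with overlap and a log2 fold change of 0.56 ± 0.29 (SE). Hif3a, a further alpha subunit, was near the floor, at 0, 8 and 3 reads in control and 35, 33 and 17 in Bmal1;CKO, so no fold change is given. No control library reached the 10 reads of the filter, so Hif3a was tested only through the group where it is high. Neither its call nor its lack of overlap is therefore read as a result. It was the 1 gene of the wider set that was higher at an unadjusted p under 0.05 by limma-trend. The unadjusted p of Hif3a was 0.0679 by edgeR and 0.102 by DESeq2. Arnt2, a relative of Arnt, was at 0, 765 and 464 normalized counts in control and 484, 203 and 557 in Bmal1;CKO, and the groups overlapped. Os9 had 19471, 12453 and 21213 in control and 25215, 27442 and 22244 in Bmal1;CKO, higher without overlap, with an unadjusted p of 0.0963 by limma-trend.

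Of 22 glucose transport and glycolysis targets, 13 were higher and 9 lower, with a median of 0.15 that turned to -0.16 in the microglial scale. Slc2a1, the main glucose transporter of retinal endothelium, had 29317, 28131 and 26851 normalized counts in control and 20703, 15934 and 35907 in Bmal1;CKO. Library 6 was above and libraries 4 and 5 were below all controls, with a log2 fold change of -0.30 ± 0.33 (SE). Slc2a3, a glucose transporter of neurons, had 397, 866 and 664 against 274, 245 and 260.3, which did not overlap, with a log2 fold change of -1.23 ± 0.50 (SE), an adjusted p of 0.883 by limma-trend (unadjusted 0.0416). The unadjusted p of Slc2a3 was 0.0354 by edgeR and reached 0.135 by limma-trend when a library was left out.

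Of 13 tested vascular targets, 10 were lower and 3 higher, and the median of -0.38 became -0.07 without Bmal1;CKO library 5 and turned to 0.15 in the endothelial scale. Flt1, Kdr and Tek of this list are also among the endothelial markers. Vegfa, the main angiogenic ligand, had 3539, 6016 and 4022 normalized counts in control and 2623, 3869 and 3829 in Bmal1;CKO. The groups overlapped, with a log2 fold change of -0.38 ± 0.31 (SE; unadjusted limma-trend p 0.253). Adm, which encodes the vasoactive peptide adrenomedullin, had 3563, 3098 and 5767 against 2668, 1309 and 2681. Adm did not overlap, at -0.92 ± 0.39 (SE), with an adjusted p of 0.883 by limma-trend (unadjusted 0.0484). The unadjusted p of Adm was 0.0510 by edgeR and reached 0.174 by limma-trend when a library was left out.

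All 5 tested genes for collagen modification had a lower fitted value (median -0.87, range -1.19 to -0.40 when each library was left out), as did P4ha1 of the same pathway, whereas in the endothelial scale 2 of these 5 and P4ha1 were higher. Plod1 was near 0 at -0.03, and it was 0.29 without control library 1. P4hb was -0.19, and it was 0.05 without control library 3. P4ha2, Plod2 and Loxl2 stayed lower whichever library was left out. Plod2, a lysyl hydroxylase, had 333, 332 and 288 normalized counts in control and 39.4, 174 and 111 in Bmal1;CKO. It did not overlap, with a log2 fold change of -1.78 ± 0.76 (SE), an adjusted p of 0.883 by limma-trend (unadjusted 0.0479). Plod2 had 28 reads in Bmal1;CKO library 4, and without that library the log2 fold change was -1.18. Its unadjusted p was 0.0736 by edgeR and reached 0.131 by limma-trend when a library was left out. Of 24 stress and feedback targets, 11 were higher and 13 lower, with a median of -0.12 that turned to 0.09 without control library 2 and to 0.41 in the endothelial scale. Tfrc, the transferrin receptor, had 6100.3, 2738 and 1533 against 596, 577 and 1161, with control library 1 far above the rest. Its log2 fold change was -1.999 ± 0.55 (SE), with an adjusted p of 0.883 by limma-trend (unadjusted 0.00743). Without control library 1 the value was -1.47. The adjusted p of Tfrc was 0.0552 by DESeq2 and 0.9998 by edgeR. Bnip3l, the paralogue of Bnip3, had 5266, 2758 and 2464 against 2077, 2144 and 2125, which did not overlap, with a log2 fold change of -0.64 ± 0.34 (SE; unadjusted limma-trend p 0.1002).

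**Figure D5:**
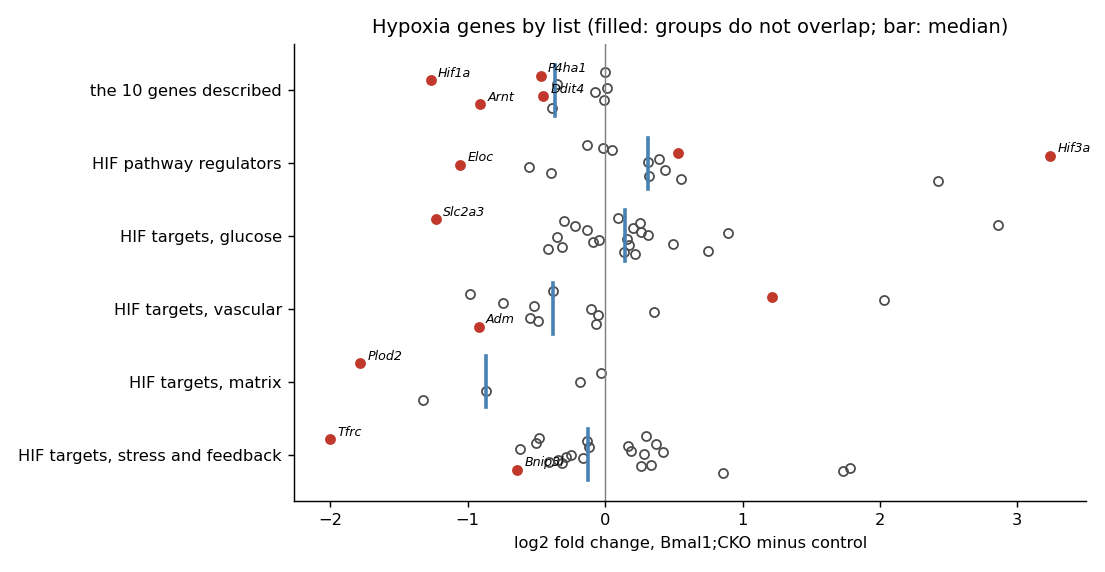
Log2 fold changes, Bmal1;CKO minus control (x axis), of the members and of the genes of 5 wider lists, with 1 point per tested gene, filled where the groups do not overlap, and a bar at each median. The medians run from -0.87 for collagen modification to 0.31 for regulators, and the filled points of the members are Hif1a, Arnt, P4ha1 and Ddit4, of which the last 2 change sign when scaled to endothelial markers.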

How the data were processed

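RNA was measured in VECs sorted by FACS from P7.5 retinas, with 3 libraries per genotype. The authors used Trimmomatic, Bowtie (mm10, GRCm38) and featureCounts to trim, align and count the reads, and deposited a signal: gene counts after division by each library's DESeq2 size factor. The Bowtie version and the use of strand are not given in the sources used here. The deposited table also holds a mean over libraries and the authors' own fold changes and p-values, which were not used. Its column names give the genotype, while their numbers do not match those of the samples, so each column was used as a replicate of its genotype. The study's methods name 3 animals per genotype, and pooling is not mentioned. Reads were recovered by dividing each column by its smallest step, and 100% of values were whole within 0.01 reads. Intervals of counting error do not cover the amplification.

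The members and gene lists were chosen with earlier results of these data known. Every member was named, as were 9 wider genes whatever their values and those with an unadjusted p under 0.05 and groups that did not overlap. The 3 genes most like Hif1a and like Epas1 by root mean square difference were also named. Os9, Plod1, P4hb, P4ha2 and Loxl2 were named after their values were seen. Some genes of the lists are not reported here. Genes with 10 or more reads in 3 or more libraries were fitted with limma-trend (limma 3.58.1, R 4.3.3) on log2(normalized count + 1), and p-values were adjusted over all tested genes. This scale can understate changes of genes that are low in every library. It can also give a large value where a single library is at or near 0. Arnt2, at 0 in control library 1, had a log2 fold change of 2.42 by limma-trend and 0.017 by edgeR. Alternatives were edgeR 4.0.16 with TMM scaling or the size factors, limma-voom, DESeq2 1.42.0, pseudocounts of 0.5 and 10, other filters on low counts, log2 CPM, scaling to endothelial or microglial markers, and each library left out. The limma, edgeR and DESeq2 fits were tested on simulated data with known changes. Gene models came from GENCODE M21 and promoters from RefSeq GRCm38.p6. Tables were handled with pandas 2.3.3 and scipy 1.17.1, and figures drawn with matplotlib 3.10.9, under Python 3.11.15.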

Additional observations from a re-analysis of the deposited data

How the results depend on the processing

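No paired analysis was possible because the columns of the table carry no replicate number shared between the groups, so the fits used genotype only. Hif1a and Arnt were lower in Bmal1;CKO in all 17 alternatives. In the endothelial scale the sign turned for Epas1 (0.18), Egln1 (0.46), Bnip3 (0.52), Ddit4 (0.078), Ankrd37 (0.14) and P4ha1 (0.060), because that scale moves every gene up by the same amount. Egln3 and Vhl, near 0 in limma-trend, turned to -0.080 and -0.33 with edgeR under TMM scaling, to -0.071 and -0.32 with edgeR on size factors, to -0.011 and -0.070 with voom, to -0.071 and -0.32 with DESeq2, and to -0.29 and -0.30 in the microglial scale, which was added after seeing the data. Leaving out each library in turn moved the log2 fold change of Bnip3 between -0.31 and 0.15, of Egln1 between -0.15 and 0.062, of Epas1 between -0.76 and 0.18, of Egln3 between -0.27 and 0.35 and of Vhl between -0.67 and 0.59.

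At an unadjusted p under 0.05 there was 1 member in limma-trend, 0 in the endothelial scale, and 0 (without control library 3) to 2 (without Bmal1;CKO library 6) when a library was left out. The wider lists had 6 such genes, 3 with edgeR and TMM scaling, 1 in the endothelial scale, and 2 (without Bmal1;CKO library 4) to 11 (without control library 1) when a library was left out. Over all genes there were 1007, 604 in the microglial scale, and 318 (without Bmal1;CKO library 5) to 2332 (without control library 3) when a library was left out. Genes at an FDR of 0.05 numbered 0 in limma-trend, 67 with DESeq2, 1 with each of the other filters (at least 1 read, or at least 10 reads in every library) and in the endothelial and microglial scales, and 0 to 6 when a library was left out, the highest without control library 1. Of genes at an unadjusted p under 0.05, 64.3% were higher in Bmal1;CKO in limma-trend, 50.1% with edgeR and TMM scaling, 43.8% with DESeq2 and 97.0% in the endothelial scale. The causes of these changes were not tested except where stated. With 3 libraries per genotype the intervals of most members span both directions, so a lack of a call does not show that levels were equal.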
